A study of Mus musculus with 12 samples.

Results

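MIN6 cells come from a mouse insulinoma, release insulin and serve as a culture model of the pancreatic β-cell. The comparison described here is between MIN6 cells that had been given amino acids back for 3 h and MIN6 cells kept without amino acids for 16 h. The libraries were chosen by their labels alone, 3 re-added and 3 starved, which makes 6 of the 12 RNA sequencing libraries of the series. All cells were of the wild-type genotype and were grown in DMEM with fetal bovine serum and glutamine. The other 6 libraries came from 3 control samples and from 3 samples given amino acids back together with "Rap", which the labels do not spell out. The labels do not give the dose of Rap, the composition of the medium without amino acids, or how long the re-added cells had been starved before re-addition. Nothing states that replicates were separate cultures, so p-values measure only the spread between these samples and that spread may be technical.

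Cells read their amino acid supply through a pair of main routes. Uncharged tRNA activates the kinase GCN2, which slows general translation and raises the transcription factor ATF4 and its targets for amino acid transport, synthesis and tRNA charging. Amino acids also recruit the kinase complex mTORC1 to the lysosome through the Rag GTPases, where active mTORC1 favours translation, ribosome production and lipid synthesis and restrains autophagy and the lysosomal factors TFEB and TFE3. In the β-cell both routes meet insulin production, and the series title links mTORC1 to PDX1, the homeobox factor of insulin gene transcription.

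The 6 libraries held 19530802 to 23786428 counted reads, and over all 12 libraries a gene at 5 CPM (counts per gene, adjusted for library size) rests on 92.8 to 128.2 reads. Replicate pairs differed by more than counting noise, so no library was a copy of another. The 10 β-cell markers summed to between 35430.9 and 37750.8 CPM in the starved and between 32898.7 and 38043.2 CPM in the re-added libraries, although 2 markers of mature β-cells were scarce. Slc2a2, the glucose transporter, stayed at or under 4.08 CPM and Ucn3, urocortin 3, at or under 0.922 CPM in all 6 libraries on raw totals. In bulk RNA, fewer cells of a type and less RNA per cell cannot be told apart. Markers of several other cell types separated the libraries in a way the groups do not explain. The 32 markers of fibroblasts, leukocytes and endothelium summed to 2077.9, 166.7 and 1010.9 CPM in starved replicates 1, 2 and 3 and to 862.1, 149.8 and 148.8 CPM in re-added replicates 1, 2 and 3. The 10 lung epithelium markers moved the same way, between 108.0 and 1618 CPM in the starved and between 86.6 and 763.7 CPM in the re-added libraries. All 10 fibroblast, 12 of 12 leukocyte, 9 of 10 endothelium, 10 of 10 lung and 5 of 5 erythroid markers were higher in each of starved 1, starved 3 and re-added 1 than in any of the other 3 libraries. Of the defining markers, Lum was at 0 in re-added 2 and Emcn at 0 in re-added 3, and the acinar marker Prss2 was at 0 in all 6. The part of these transcripts in the results was not tested, and counts of changed genes are therefore also given for starved 2 against re-added 2 and 3, the libraries of like marker levels. That fit left out starved 1, starved 3 and re-added 1 but kept the 3 Rap and the 3 control libraries. In control replicates 1, 2 and 3 the 32 markers summed to 2125.3, 2541.8 and 2415.3 CPM. The variance came from the groups with more than 1 library, controls included, and the lone starved library is taken to share it.

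**Figure D1:**
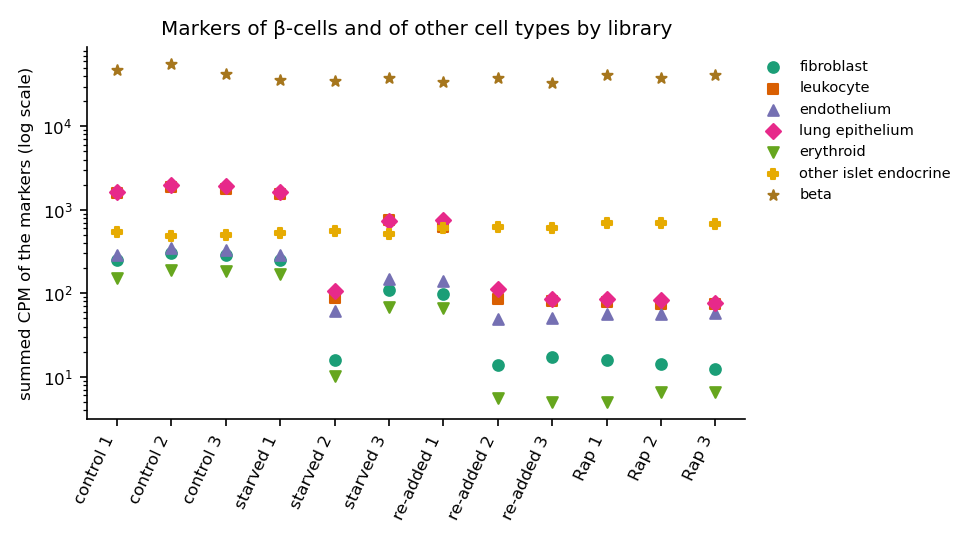
Summed CPM of marker genes for each of 12 libraries on a log scale, with 1 symbol for each cell type. The fibroblast, leukocyte, endothelium, lung epithelium and erythroid sums of starved 2, re-added 2, re-added 3 and the 3 Rap libraries lie together. They are below those of the 3 control libraries, starved 1, starved 3 and re-added 1. The other islet endocrine sum does not follow this order, at 519.2 to 557.3 CPM in the starved and 601.2 to 621.9 CPM in the re-added libraries. The β-cell sum stays between 32898.7 and 56008.6 CPM.

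A large share of the measured transcripts differed between cells 3 h after amino acid re-addition and starved cells, by moderate amounts. Of 16844 genes tested, 6275 (37.3%) passed edgeR's quasi-likelihood test at an adjusted p under 0.05, with 3100 higher (18.4%) and 3175 lower (18.8%) in re-added cells. The median size of the change over all tested genes was 0.37 on the log2 scale, and 1317 genes (7.82%) were both called and changed at least 2-fold, 635 of them higher and 682 lower. Counts of list members are to be read against these shares. At least 4-fold changes were called for 89 higher and 113 lower genes. The groups did not overlap for 8517 genes (50.6%). With libraries of like marker levels 3588 genes were called, 1689 higher and 1899 lower, and 3391 of them were also called with the same sign over all 6 libraries, which include these 3. Genes that rose at least 2-fold carried 1.1, 1.1 and 1.11% of all CPM in the starved libraries and 2.55, 2.6 and 2.57% in the re-added ones. Genes that fell at least 2-fold went from 2.6, 2.64 and 2.56% to 1.03, 0.985 and 1.01%.

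**Figure D2:**
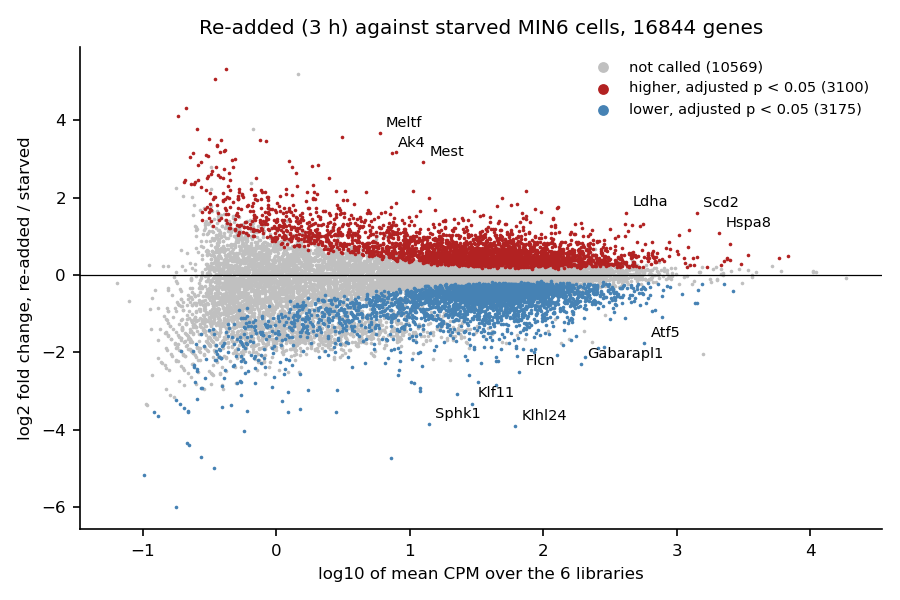
Log2 fold change (re-added over starved) against log10 of the mean CPM over the 6 libraries, 1 point for each of 16844 genes. Red points (3100) were higher and blue points (3175) lower at an adjusted p under 0.05, and the named points include Meltf and Ak4 at the top and Klhl24, Sphk1 and Klf11 at the bottom.

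The genes with the largest rises, among those with a mean of at least 5 CPM over the 6 libraries, had varied roles. Starved levels could lie under 5 CPM, so some of these genes met the floor only through their re-added levels. Meltf, which encodes the iron-binding membrane protein melanotransferrin, stood at 0.737, 0.749 and 1.11 CPM in starved and 10.8, 10.9 and 11.5 CPM in re-added libraries, a 12.7-fold rise (adjusted p = 1.54e-07, log2 fold change 3.66, SE 0.20). Mest, an imprinted gene for a hydrolase of the endoplasmic reticulum, rose from 2.95, 3.58 and 2.35 to 19.9, 22.4 and 24.4 CPM (adjusted p = 1.35e-07, log2 fold change 2.91, SE 0.15). In both genes all re-added libraries lay far above all starved ones. Aass, which begins lysine breakdown, rose from 3.85 ± 0.334 to 17.3 ± 0.407 CPM (SD, n = 3), which is 4.49-fold. Cckbr, the receptor for cholecystokinin and gastrin, rose 3.94-fold and the potassium channel gene Kcnh5 3.39-fold. Gpcpd1, a glycerophosphocholine phosphodiesterase, rose from 20.2 ± 1.49 to 70.1 ± 2.39 CPM.

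The largest falls were also in genes of several kinds, among them the ubiquitin ligase genes Klhl24 and Fbxo32. Sphk1, sphingosine kinase 1, stood at 23.7, 31.1 and 23.6 CPM in starved and 2.09, 1.72 and 1.62 CPM in re-added libraries, a 14.4-fold fall (adjusted p = 3.56e-08, log2 fold change -3.85, SE 0.17). Klf11, a Krüppel-like transcription factor, fell from 48.1, 59.1 and 51.6 to 5.25, 4.67 and 5.93 CPM (adjusted p = 1.51e-08, log2 fold change -3.32, SE 0.12). The lowest starved library exceeded the highest re-added one many times over in both. Crebrf, a regulator of the CREB3 factor, fell 7.19-fold, Fn3k, which removes sugars from glycated proteins, 7.56-fold and Rnf152, a lysosomal ubiquitin ligase that acts on a Rag GTPase, 6.73-fold. N4bp2l1, Tcp11l2 and Sema6a, a semaphorin, fell 6.8-, 6.89- and 5.45-fold.

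The values of 2 non-coding RNAs in the same ranking varied widely within a group. Xist, the RNA that silences an X chromosome and whose reads cannot be told from those of its antisense gene Tsix without a stated strand, stood at 20.4, 2.08 and 19.4 CPM in starved and 0.0973, 0.0953 and 1.32 CPM in re-added libraries (adjusted p = 0.00308, log2 fold change -4.72, SE 1.00), and between libraries of like marker levels its log2 fold change was -1.43 and did not pass. Rn7sk, the 7SK RNA, stood at 2.91, 36.3 and 2.73 CPM against 2.43, 2.43 and 2.05 CPM, so that starved 2 alone was high. Its call (log2 fold change -2.59, adjusted p = 0.0424) held in 2 of the 6 fits that left out 1 library. Without starved 2 the log2 change was -0.28.

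In absolute terms the largest gains and losses of CPM were in abundant transcripts. Pdyn, the precursor of dynorphin peptides, rose from 5717 ± 530.2 to 8049 ± 259 CPM (adjusted p = 0.000177, log2 fold change 0.49, SE 0.069). Prkar1a, a regulatory subunit of protein kinase A, rose from 4990.0 ± 494 to 6749 ± 88.7 CPM and Igf2, insulin-like growth factor 2, from 2824 ± 297 to 4029 ± 233 CPM. Losses were led by the elongation factor gene Eef2 (3051 ± 229.9 to 2276 ± 48.3 CPM), Atp2a2, the calcium pump of the endoplasmic reticulum (1753 ± 201 to 1069 ± 80.6 CPM), and the polyubiquitin gene Ubb (1695 ± 123 to 1032 ± 45.3 CPM). Prnp, the prion protein gene, fell 2.14-fold. All of these passed the test, and none had overlapping groups.

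**Figure D3:**
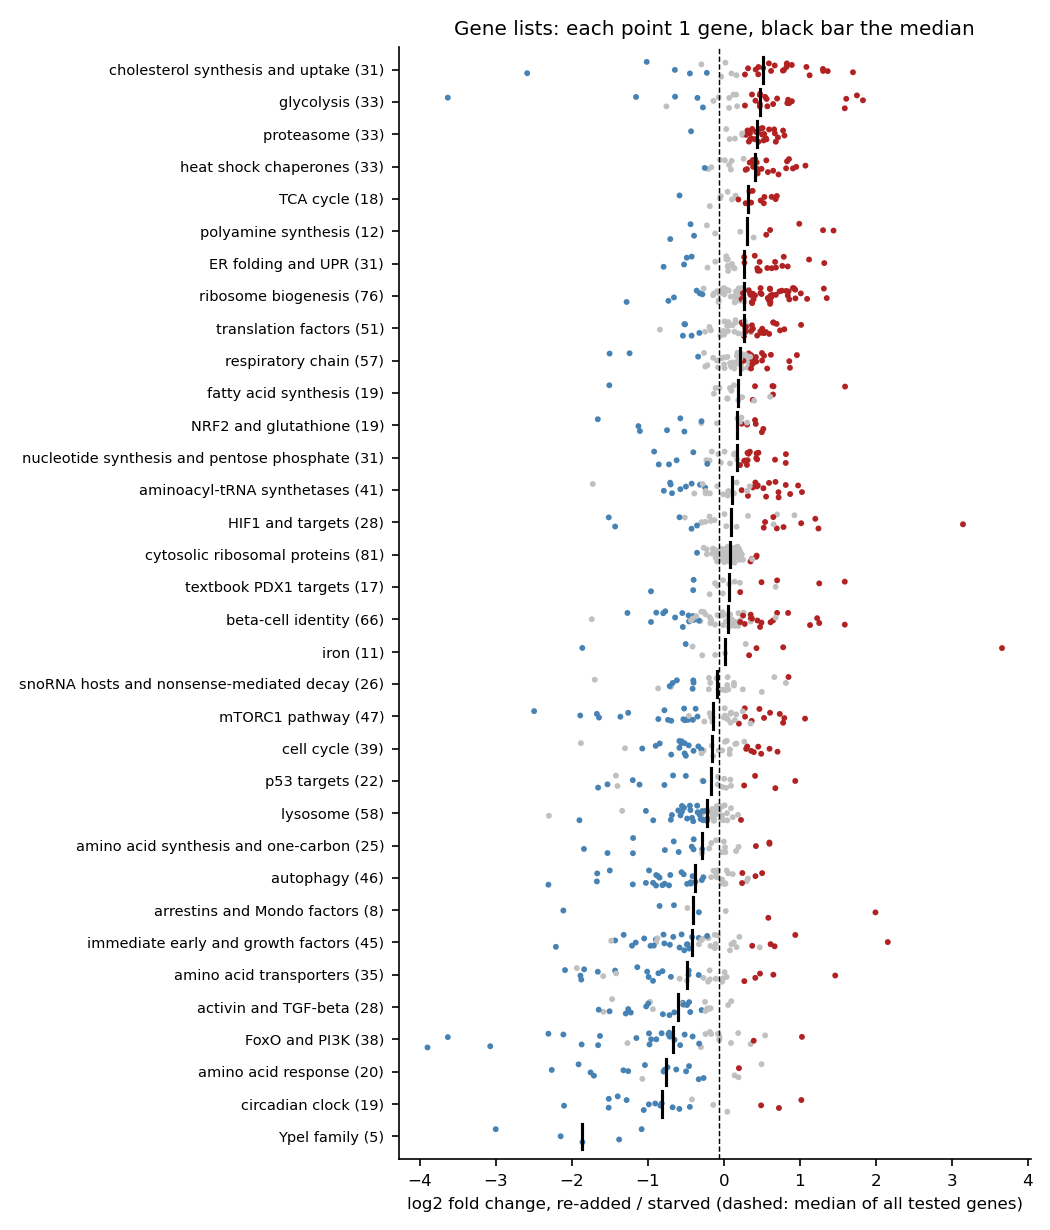
Log2 fold change (re-added over starved) of every tested member of 34 gene lists, 1 point for each gene, red for higher and blue for lower at an adjusted p under 0.05, with the number tested in brackets. Black bars are list medians, which run from -1.86 for the Ypel family to 0.52 for cholesterol synthesis and uptake, and the dashed line is the median of all tested genes at -0.064.

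Genes of the response to amino acid shortage were lower after re-addition. Of 20 members tested of the amino acid response list (ATF4, its partner factors and their best known effectors), 15 fell and 1 rose (12 and 1 with libraries of like marker levels), with a median log2 fold change of -0.76 against -0.064 over all genes. The highest log2 fold change of the list, 0.497, was in a member that was not called. The riser over all libraries, Ddit4, was not the riser with libraries of like marker levels. Ddit4, an mTORC1 inhibitor, had a log2 fold change of 0.20 (adjusted p = 0.042). Its call held in 4 of the 6 fits that left out 1 library and was lost with libraries of like marker levels (adjusted p = 0.171). Among the transcription factors, Atf5 (chromosome 7, 44812256 to 44816658, minus strand, GRCm38.p6) stood at 839, 980.3 and 827 CPM in starved and 256, 274 and 254 CPM in re-added libraries. Each re-added library held less than any starved one, and the fall was 3.37-fold (adjusted p = 1.7e-07, log2 fold change -1.75, SE 0.096). Atf4 itself changed less, from 386, 472 and 427 to 306, 311 and 293 CPM (adjusted p = 0.00146, log2 fold change -0.50, SE 0.094). Jdp2, a bZIP repressor, and Nupr1, a small stress-induced chromatin protein, fell 2.5- and 3.27-fold.

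Among the effectors, Chac1, which degrades glutathione, stood at 119.8, 144 and 146 CPM in starved and 35.2, 37.5 and 36.3 CPM in re-added libraries (adjusted p = 1.16e-07, log2 fold change -1.91, SE 0.099). Trib3, a pseudokinase that restrains AKT, went from 48.9, 66.5 and 54.7 to 10.9, 12 and 12.5 CPM (adjusted p = 1.54e-06, log2 fold change -2.26, SE 0.17). All re-added libraries lay under all starved ones for both genes. Asns, asparagine synthetase and a classic ATF4 target, fell from 302, 377 and 336 to 269, 291 and 274 CPM (log2 fold change -0.28, adjusted p = 0.0207), and this call held in 3 of the 6 fits that left out 1 library.

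The composite element bound by ATF4 with C/EBP partners was searched in the 250 bases before each RefSeq start (TGATGNAAN, both strands, N for any base). It was present in 2.42% of the 12101 tested genes with a promoter entry, in 7 of the 18 amino acid response genes with one, and in 6 of the 14 of those that fell. Among amino acid transporters it was in 2 of 25 and in 1 of the 11 that fell, and among tRNA synthetases in 3 of 30, with 1 in a gene that fell and 1 in a gene that rose. The stretches around 3 of these matches and around the paired matches of Slc7a11, the cystine transporter gene, are shown as examples from genes that fell; capitals mark the match. They lie at chr2:119351028-119351076 (plus strand), chr12:85599363-85599411 (plus strand), chr7:126625553-126625601 (minus strand) and chr3:50443633-50443699 (minus strand) in GRCm38.p6.
Chac1: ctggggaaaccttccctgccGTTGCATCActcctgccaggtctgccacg
Jdp2: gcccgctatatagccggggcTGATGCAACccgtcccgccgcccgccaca
Nupr1: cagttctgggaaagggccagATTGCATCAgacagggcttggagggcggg
Slc7a11: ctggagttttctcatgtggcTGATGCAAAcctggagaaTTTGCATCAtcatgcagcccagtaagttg

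Genes of amino acid synthesis and transport fell unevenly. Of 25 tested genes of amino acid synthesis and one-carbon metabolism, 11 fell and 3 rose (median -0.28; 7 and 2 with libraries of like marker levels). Without starved 1 the median was -0.14 and without starved 2 -0.18. Gpt2, the mitochondrial alanine aminotransferase, stood at 97.8, 122 and 109.8 CPM in starved and 38, 38.5 and 37.4 CPM in re-added libraries. Every re-added value was far under the starved range (adjusted p = 4.52e-07, log2 fold change -1.53, SE 0.096). Shmt1, which passes the serine carbon to folate in the cytosol, fell 2.29-fold. Against this direction Mthfd1l, the mitochondrial formyl-folate synthetase, rose 1.34-fold.

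Genes of amino acid transporters also went both ways. Among 35 tested members, 16 fell and 5 rose (median -0.48; 13 and 2 with libraries of like marker levels). Slc38a2, the sodium-coupled neutral amino acid importer that starvation is known to raise (chromosome 15, 96687394 to 96699698, minus strand), stood at 373, 443 and 388 CPM in starved and 105, 109.8 and 113 CPM in re-added libraries (adjusted p = 1.54e-07, log2 fold change -1.88, SE 0.10). Slc7a11 fell from 11.8, 11.7 and 10.6 to 4.23, 2.81 and 3.75 CPM (3.16-fold), and the glycine transporter Slc6a9 3.7-fold. The groups did not overlap in Slc38a2 or Slc7a11. In the opposite direction Slc43a2, a facilitated carrier of branched-chain and aromatic amino acids, rose from 59.9, 62.9 and 65.5 to 163, 171 and 186 CPM (adjusted p = 7.23e-07, log2 fold change 1.47, SE 0.098), and Slc7a8, a neutral amino acid exchanger, 1.57-fold. Slc7a5 and Slc3a2, the chains of the leucine exchanger, fell 1.26- and 1.38-fold, and the call of Slc7a5 held in 2 of the 6 fits without 1 library.

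The tRNA charging enzymes split by gene within the cytosolic set. Of 24 cytosolic synthetases and their scaffold proteins, 11 rose and 8 fell (6 and 6 with libraries of like marker levels), and of 17 mitochondrial ones 5 rose and 1 fell. Sars, for serine, stood at 330.4, 385 and 359 CPM in starved and 209, 211 and 202 CPM in re-added libraries (adjusted p = 5.9e-06, log2 fold change -0.79, SE 0.07), and Yars, Qars and Cars, for tyrosine, glutamine and cysteine, fell 1.63-, 1.62- and 1.6-fold. Hars, for histidine, went the other way, from 67.2, 76.5 and 69.6 to 118, 116 and 117 CPM (adjusted p = 6.31e-06, log2 fold change 0.72, SE 0.064). The scaffold genes Eef1e1 and Aimp2 rose 2.04- and 1.83-fold.

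Transcripts of the mTORC1 pathway changed in both directions, and most genes of the Rag GTPase machinery at the lysosome fell. Of 47 members tested, 18 fell and 11 rose (median -0.15; 14 and 5 with libraries of like marker levels). Without re-added 3 the risers numbered 7, and the median was -0.05 without starved 2, -0.09 without re-added 3 and 0.05 without starved 1. In the set of Rag GTPases, Ragulator and folliculin 9 of 12 fell and 2 rose (median -0.59). Flcn, folliculin, the activator of RagC and RagD (chromosome 11, 59791408 to 59810016, minus strand), stood at 107, 127 and 104 CPM in starved and 20.5, 18.8 and 20.4 CPM in re-added libraries. The highest re-added value was below every starved value by a wide margin, and the fall was 5.64-fold (adjusted p = 1.51e-08, log2 fold change -2.50, SE 0.091). Its partner genes Fnip1 and Fnip2 fell 2.57- and 1.66-fold.

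The GTPase genes themselves diverged. Rragd, for RagD, fell from 87.8, 111 and 98.6 to 27.2, 25.7 and 27.4 CPM (adjusted p = 3.21e-07, log2 fold change -1.89, SE 0.11), and Rragc and Rragb fell 1.82- and 1.61-fold, whereas Rraga, for RagA, rose 1.53-fold. Lamtor1, Lamtor5 and Lamtor3 of the Ragulator scaffold fell 1.41-, 1.38- and 1.29-fold while Lamtor2 rose 1.38-fold. The call of Lamtor3 held in 3 of the 6 fits without 1 library. Among GATOR genes, Sec13 and Nprl3 rose 1.74- and 1.67-fold and Depdc5, part of the complex that switches RagA off, fell 1.43-fold.

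Sensors, brakes and substrates of mTORC1 also moved. Sesn2, the leucine sensor sestrin 2, stood at 144, 167 and 157 CPM in starved and 88.9, 88.4 and 95.2 CPM in re-added libraries (adjusted p = 4.58e-05, log2 fold change -0.78, SE 0.091). Deptor, an inhibitory subunit of the complex, fell from 65.2, 77 and 69.1 to 21.7, 22.3 and 23.7 CPM (adjusted p = 2.95e-07, log2 fold change -1.64, SE 0.096). Both genes had separate groups. Ulk1, the autophagy kinase that mTORC1 phosphorylates, went from 58.3, 66.1 and 63.4 to 19.5, 17.1 and 22.4 CPM (adjusted p = 6.04e-07, log2 fold change -1.67, SE 0.11), and Eif4ebp1, the cap-binding repressor that mTORC1 inactivates, from 66.2, 69.7 and 74.3 to 29.3, 29.4 and 29.2 CPM (adjusted p = 1.95e-06, log2 fold change -1.26, SE 0.095). Tbc1d7, a subunit of the TSC complex, rose from 17.8, 18.2 and 16.7 to 38.9, 37 and 34.8 CPM (adjusted p = 4.95e-06, log2 fold change 1.07, SE 0.092), and Mlst8, a core subunit of mTORC1, rose 1.44-fold. Tsc1 fell 1.44-fold, a call that held in 3 of the 6 fits without 1 library.

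**Figure D4:**
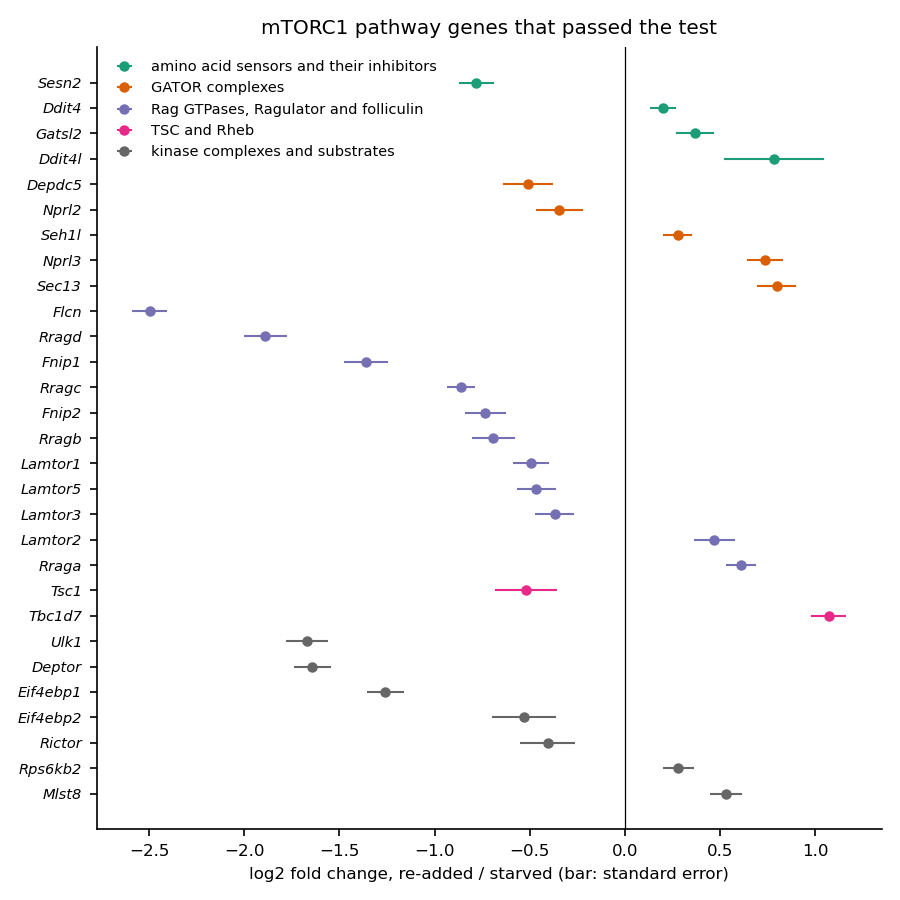
Log2 fold change (re-added over starved) with its standard error for the 29 mTORC1 pathway genes that passed the test, coloured by role. Flcn, Rragd, Ulk1 and Deptor lie at or below -1.64, and Tbc1d7 is the single gene above 1.

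Many lysosomal and autophagy genes were lower after re-addition, most of them by less than 2-fold. Of 58 lysosome genes tested, 27 fell and 1 rose (median -0.22; 15 and 0 with libraries of like marker levels). By role, 9 of 11 membrane proteins were lower, 14 of 28 hydrolases and 4 of 15 subunits of the proton pump. Without re-added 3 the hydrolases that fell numbered 9. Ctns, the cystine exporter of the lysosome, stood at 46.4, 49.1 and 48.4 CPM in starved and 14.1, 12.5 and 12 CPM in re-added libraries (adjusted p = 5.66e-08, log2 fold change -1.90, SE 0.088). Tmem55b, which positions lysosomes, fell 2.03-fold, the sialic acid exporter Slc17a5 1.9-fold and the sialidase Neu1 1.6-fold. None of the 4 MiT/TFE transcription factor genes was called by edgeR, by DESeq2 or at an unadjusted p under 0.05 (0 of 4 each). Their log2 fold changes ran from -2.30 to -0.035, and 1 gene was called lower without starved 2 and 1 without re-added 1.

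Among 46 autophagy genes, 25 fell and 4 rose (median -0.38; 21 and 1 with libraries of like marker levels). Gabarapl1, an ATG8 protein that marks autophagosomes (chromosome 6, 129533160 to 129542346, plus strand), stood at 302, 341 and 319 CPM in starved and 66.2, 66 and 61.9 CPM in re-added libraries (adjusted p = 1.51e-08, log2 fold change -2.31, SE 0.083). Map1lc3b, encoding LC3B of the same family, fell from 223, 269.7 and 240.5 to 78.9, 78.2 and 73.8 CPM (adjusted p = 1.08e-07, log2 fold change -1.67, SE 0.085). Neither gene had overlapping groups. The receptor genes Calcoco1 and Sqstm1 fell 2.83- and 1.86-fold, and Trp53inp1, an autophagy and stress protein, 2.29-fold. Against the majority, Atg3, the enzyme that attaches ATG8 proteins to lipid, rose 1.42-fold.

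The core of the element bound by TFEB and TFE3 (TCACGTGA, which reads the same on both strands and contains the E-box CACGTG) was present before the start of 1.59% of all 12101 genes, 6 of the 46 lysosome genes and 1 of the 38 autophagy genes with a promoter entry. Of the 22 lysosome genes that fell 5 had it, and of the 20 autophagy genes that fell 0 did, since the match was in Atg3, which rose. Those of Cln3, a lysosomal membrane protein (which fell 1.47-fold), and Mcoln1, the calcium channel of the lysosome (1.23-fold lower), are shown as examples at chr7:126583331-126583378 (minus strand) and chr8:3500453-3500500 (plus strand).
Cln3: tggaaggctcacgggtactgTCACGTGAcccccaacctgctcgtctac
Mcoln1: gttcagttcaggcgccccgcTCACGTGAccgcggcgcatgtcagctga

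Genes that FoxO factors are known to activate were lower after re-addition. FoxO factors are held out of the nucleus by insulin and AKT signalling. Of 21 targets tested, 14 fell and 0 rose by edgeR (1 rose by DESeq2 and 1 at an unadjusted p under 0.05; median -0.98; 10 and 0 with libraries of like marker levels). Without starved 1 the median was -0.49. Fbxo32, the ubiquitin ligase subunit atrogin-1 (chromosome 15, 58175879 to 58214892, minus strand), stood at 39.1, 43.3 and 37.7 CPM in starved and 5.4, 4.29 and 4.56 CPM in re-added libraries (adjusted p = 1.51e-08, log2 fold change -3.07, SE 0.11). Klhl24, another ubiquitin ligase adaptor, fell 14.9-fold from 107, 130.3 and 110.0 to 10.1, 6.05 and 7.16 CPM. The re-added libraries lay below the starved ones in both, with no overlap. Ccng2, an atypical cyclin, and Bbc3, the BH3-only protein PUMA, fell 3.66- and 3.15-fold.

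In the insulin receptor and PI3K pathway, 7 of 13 genes fell and 2 rose. Irs1, the insulin receptor substrate, and the factor Foxo3 fell 2.22- and 1.85-fold, while Pik3r3, a regulatory subunit of PI3K, rose 2.04-fold. All 5 genes of the Ypel family, small zinc-binding proteins of uncertain function, fell, from 2.12-fold for Ypel2 to 8.01-fold for Ypel4. The α-arrestin genes diverged: Txnip, which binds thioredoxin and restrains glucose uptake, stood at 317, 363 and 324 CPM in starved and 82.7, 72.7 and 76.8 CPM in re-added libraries (adjusted p = 2.17e-08, log2 fold change -2.11, SE 0.083), whereas Arrdc3 rose from 21.4, 18.6 and 18.9 to 76.1, 79.8 and 79.4 CPM (adjusted p = 5.01e-08, log2 fold change 2.00, SE 0.089). Arrdc4, the closest relative of Txnip, fell 1.8-fold.

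The FoxO element GTAAACA, on either strand, was found before the start of 2.8% of all 12101 genes and of 4 of the 31 FoxO and PI3K genes with an entry, 3 of which fell. Stretches of Txnip and Bbc3 are shown as the matches in genes that fell most, at chr3:96557816-96557862 (plus strand) and chr7:16310074-16310120 (plus strand).
Txnip: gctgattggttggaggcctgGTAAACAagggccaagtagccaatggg
Bbc3: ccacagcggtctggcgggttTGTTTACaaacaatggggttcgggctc

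Cholesterol synthesis genes rose in the early and the late steps of the pathway. Of 12 genes from acetyl-CoA to lanosterol 10 rose, and of 9 from lanosterol to cholesterol 8 rose, with medians of 0.70 and 0.67 and 0 genes lower by edgeR, DESeq2 or an unadjusted p under 0.05. With libraries of like marker levels 9 and 5 of them rose. Hmgcs1, which makes HMG-CoA (chromosome 13, 119690462 to 119708086, plus strand), stood at 43.8, 45.6 and 43.5 CPM in starved and 109.5, 114 and 120.2 CPM in re-added libraries (adjusted p = 5.66e-08, log2 fold change 1.37, SE 0.063). Cyp51, which demethylates lanosterol, rose from 72.6, 86 and 77.7 to 166, 167 and 169 CPM (adjusted p = 1.41e-06, log2 fold change 1.09, SE 0.078). In both, every re-added library exceeded every starved one. Srebf2, the factor that controls the pathway, rose 1.78-fold. The exporters went the other way: Abca1 fell from 46.5, 51.7 and 45.7 to 10.2, 5.62 and 8.14 CPM (adjusted p = 3.47e-06, log2 fold change -2.59, SE 0.21) and Abcg1 2.02-fold, as did Mylip, a ubiquitin ligase of lipoprotein uptake (1.56-fold).

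Among 19 fatty acid genes 6 rose and 1 fell. Scd2, a stearoyl-CoA desaturase, stood at 648, 754 and 702 CPM in starved and 2009, 2088 and 2271 CPM in re-added libraries, a 3.03-fold rise (adjusted p = 1.5e-07, log2 fold change 1.60, SE 0.086). Srebf1 rose 1.58-fold, and the single faller Lpin1, a phosphatidate phosphatase that mTORC1 keeps out of the nucleus, fell 2.84-fold. The sterol element TCACNCCAC, on either strand, was present in 1.21% of all promoters and in 1 of the 22 cholesterol genes with an entry, Hmgcs1, at chr13:119690194-119690242 (plus strand).
Hmgcs1: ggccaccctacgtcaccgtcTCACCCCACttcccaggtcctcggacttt

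Many glycolysis genes rose, among them genes of glucose entry and of lactate export. Of 33 tested genes, 20 rose and 5 fell (median 0.47; 16 and 3 with libraries of like marker levels). Slc2a1, the glucose transporter GLUT1, stood at 29.3, 27.2 and 27.6 CPM in starved and 104, 95.2 and 101 CPM in re-added libraries (adjusted p = 1.54e-08, log2 fold change 1.83, SE 0.069). Ldha, lactate dehydrogenase A, rose from 204, 206 and 206 to 636, 642 and 606 CPM (adjusted p = 8.9e-08, log2 fold change 1.61, SE 0.079), and Slc16a3, the lactate exporter MCT4 (chromosome 11, 120948480 to 120960868, plus strand), from 60.0, 59.9 and 58.7 to 203, 199 and 199.9 CPM (adjusted p = 1.51e-08, log2 fold change 1.75, SE 0.06). The replicates of these 3 genes lay close together in each group and the groups were far apart. Ldha and Slc16a3 are known as genes that normal β-cells keep low. Pgk1 rose 1.82-fold, while Pdk2, a kinase that shuts pyruvate dehydrogenase, and Pfkm, the muscle phosphofructokinase, fell 2.23- and 1.27-fold. By role, 4 of 6 genes of glucose entry rose and 1 fell, and 10 of 15 enzymes rose and 1 fell. Of 12 genes of lactate and pyruvate fate 6 rose and 3 fell, 2 of these at least 2-fold. The lowest log2 fold change of the whole list, -3.63, was in that last set.

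Targets of the hypoxia factor HIF1 overlap with this list. Of 20 targets tested, 8 rose and 3 fell (median 0.59). Ak4, a mitochondrial adenylate kinase, rose 8.87-fold from 1.71, 1.28 and 1.41 to 13.6, 13 and 12.9 CPM. This was the second largest rise among genes with a mean of at least 5 CPM over the 6 libraries, a floor that its starved levels did not reach. P4ha1, a collagen prolyl hydroxylase, and Fam162a rose 2.31- and 2.37-fold. The repressors Mxi1 and Bhlhe40 fell 2.69- and 2.86-fold.

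The hypoxia element ACGTGC, on either strand, was found before the start of 7.63% of all 12101 genes, of 7 of the 31 glycolysis genes with an entry and of 7 of the 19 of them that rose. Over all genes it was in 8.7% of those that rose and in 9.18% of those that fell. Of the 22 genes of the HIF1 list with an entry 11 had it, among them 5 of the 8 that rose and 2 of the 4 that fell. Stretches of 3 risers with different roles in glucose use are shown, at chr4:119108689-119108734 (plus strand), chr7:46845749-46845794 (plus strand) and chr11:120949020-120949066 (plus strand); that of Slc16a3 holds 2 matches.
Slc2a1: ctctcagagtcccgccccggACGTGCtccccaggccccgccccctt
Ldha: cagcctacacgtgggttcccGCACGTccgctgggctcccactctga
Slc16a3: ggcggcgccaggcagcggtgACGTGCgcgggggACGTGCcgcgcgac

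Many genes of ribosome production rose, while 76 of 81 genes of the ribosomal proteins themselves did not pass the test. Of 76 ribosome biogenesis genes, 39 rose and 6 fell (median 0.27; 25 and 3 with libraries of like marker levels). Rrp12, an export factor of both ribosomal subunits (chromosome 19, 41862852 to 41896153, minus strand), stood at 24.2, 26.5 and 26.1 CPM in starved and 65, 66.7 and 64.9 CPM in re-added libraries (adjusted p = 1.62e-07, log2 fold change 1.36, SE 0.074). Bysl, bystin of the small subunit, rose from 27.3, 30.3 and 30.9 to 70.4, 77.4 and 72.9 CPM (adjusted p = 2.95e-07, log2 fold change 1.32, SE 0.078). Every re-added library stood above every starved one in both. Bop1, for the large subunit, rose 2.14-fold. Maf1, the repressor of RNA polymerase III that mTORC1 phosphorylates, fell from 137, 166 and 146 to 66.3, 57.8 and 60.8 CPM (adjusted p = 2.05e-06, log2 fold change -1.28, SE 0.098), and Ubtf, a factor of RNA polymerase I, 1.66-fold. Of 81 cytosolic ribosomal protein genes 4 rose, Rpl3 among them (1.35-fold), and 1 fell (Rps4x, 1.28-fold), with all log2 fold changes between -0.35 and 0.43.

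Among initiation factors of translation 21 of 37 rose and 3 fell (12 and 3 with libraries of like marker levels). Eif2b3, a subunit of the exchange factor that eIF2 phosphorylation inhibits, rose 2.02-fold, and Eif4e, the cap-binding protein, and the helicase Eif4a1 1.62- and 1.57-fold. Eif4b and Eef2 were lower (1.45- and 1.34-fold). Among nucleotide and pentose phosphate genes 15 of 31 rose and 6 fell (7 and 5 with libraries of like marker levels), with Ctps, CTP synthetase, up 1.76-fold. Odc1, ornithine decarboxylase of polyamine synthesis, stood at 284, 348 and 339 CPM in starved and 784, 821 and 796 CPM in re-added libraries (adjusted p = 1.05e-06, log2 fold change 1.31, SE 0.09). Srm and Sms, the spermidine and spermine synthases, rose 2.72- and 1.99-fold, and Sat1, which starts polyamine breakdown, fell (1.63-fold).

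Chaperone and proteasome genes rose. Of 33 heat shock chaperone genes 24 rose and 1 fell (18 and 0 with libraries of like marker levels), of 17 folding genes of the endoplasmic reticulum 11 rose and 0 fell (also 0 by DESeq2 and at an unadjusted p under 0.05), and of 33 proteasome genes 27 rose and 1 fell (14 and 0 with like libraries). Hspa8, the constitutive HSP70 (chromosome 9, 40800984 to 40810087, plus strand), stood at 1249, 1425 and 1346 CPM in starved and 2722, 2965 and 2786 CPM in re-added libraries (adjusted p = 7.69e-06, log2 fold change 1.08, SE 0.099). Pdia4, a disulfide isomerase, rose from 214, 248 and 239 to 576, 599 and 582 CPM (adjusted p = 1.16e-07, log2 fold change 1.32, SE 0.068), and Hspa5, the main HSP70 of the endoplasmic reticulum, from 1663, 2017 and 1818 to 3150.0, 3208 and 3149 CPM (adjusted p = 1.97e-05, log2 fold change 0.79, SE 0.082). None of the 3 had overlapping groups. Bag3, an HSP70 co-chaperone, rose 1.77-fold, and Hspa1a, which has a near-identical copy in Hspa1b so that reads can be split between them, 1.94-fold.

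The proteasome changes were small and even, with a median of 0.44 and a range of -0.43 to 0.80 on the log2 scale. Psmc5, an ATPase subunit, rose from 108, 117 and 122 to 199, 207 and 199 CPM (adjusted p = 9.89e-06, log2 fold change 0.80, SE 0.076). Psme4, an alternative activator, was the single gene that fell (1.35-fold). Among the sensors and degradation genes of the endoplasmic reticulum 5 of 14 rose and 4 fell, including Herpud1 (1.73-fold).

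Mitochondrial enzymes encoded in the nucleus rose in part. Of 44 nuclear respiratory chain genes and their coactivators 19 rose and 3 fell (8 and 2 with libraries of like marker levels), and 0 of 13 genes of the mitochondrial genome passed by edgeR, by DESeq2 or at an unadjusted p under 0.05. Sdhb of complex II rose 1.83-fold. Ppargc1a, the coactivator PGC-1α of mitochondrial genes, fell from 30.2, 39.3 and 32.3 to 11.3, 13.2 and 11.5 CPM (adjusted p = 9.15e-06, log2 fold change -1.50, SE 0.14), with separate groups. In the citric acid cycle 11 of 18 genes rose (6 with libraries of like marker levels), such as Fh1, fumarase (1.62-fold), and Idh2, the NADP-dependent isocitrate dehydrogenase, fell (1.5-fold).

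Several genes of the MYC network and other early and growth genes were lower, repressors that compete with MYC among them. In the MYC network 6 of 9 genes fell and 0 rose by edgeR, DESeq2 or an unadjusted p under 0.05 (median -0.89). Mnt, a repressor that competes with MYC for its partner MAX, stood at 67.9, 81.2 and 77.8 CPM in starved and 16.5, 16.6 and 15.9 CPM in re-added libraries (adjusted p = 5.01e-08, log2 fold change -2.21, SE 0.10), and Mxd4, another such repressor, fell 2.49-fold. Every re-added library was far below every starved one for Mnt. Of 45 early and growth genes in all, 22 fell and 5 rose (17 and 7 with libraries of like marker levels), with Klf10 and Dusp1 lower (2.23- and 1.73-fold) and Egr4, an early growth response factor, 4.47-fold higher.

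Most clock genes changed. Of 19 tested, 13 fell and 3 rose (median -0.82; 11 and 2 with libraries of like marker levels). Nr1d2, the repressor REV-ERBβ, stood at 95.3, 123 and 93 CPM in starved and 25.4, 22.6 and 24.4 CPM in re-added libraries (adjusted p = 6.41e-07, log2 fold change -2.10, SE 0.14), and Rora and Tef fell 2.86- and 2.63-fold. The risers were led by the repressors Cry1 (2.03-fold) and Per2 (1.65-fold).

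Activin and TGF-β genes, many of which fibroblasts also express, were lower: 16 of 28 fell and 0 rose by edgeR, DESeq2 or an unadjusted p under 0.05 (median -0.60). With libraries of like marker levels 11 fell (median -0.34), and without starved 1 the median was -0.38. The other-cell sums above were higher in 2 starved libraries and 1 re-added library, and their part in this count was not tested. Inhba, the activin A subunit, stood at 50.6, 55 and 54.3 CPM in starved and 21.6, 22.8 and 24.1 CPM in re-added libraries (adjusted p = 2.15e-06, log2 fold change -1.22, SE 0.094). Tgif1, a SMAD corepressor, and Id2, an inhibitor of bHLH factors, fell 2.83- and 2.39-fold.

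Among β-cell genes the changes ran both ways, with 17 of 66 higher and 13 lower, against the 18.4% and 18.8% of all tested genes (median 0.06; 9 and 9 with libraries of like marker levels). With 1 library left out that median ran from 0.02 to 0.14. Pdx1 (chromosome 5, 147269959 to 147275848, plus strand), which the series' design names, stood at 365, 445 and 419.9 CPM in starved and 462, 478 and 488 CPM in re-added libraries. The groups did not overlap, but starved 2 and 3 lay near the lowest re-added value, and the rise was 1.16-fold (adjusted p = 0.0399, log2 fold change 0.22, SE 0.075). Pdx1 did not pass in edgeR with the other-cell marker sum as a covariate (log2 fold change 0.147, adjusted p = 0.173). It passed in 4 of the 6 fits that left out 1 library and not with libraries of like marker levels (0.18 on the log2 scale). Mafa, the other activator of insulin genes in mature β-cells, overlapped between groups (115, 155 and 292 against 242, 325 and 336 CPM, adjusted p = 0.0787), with starved 3 standing apart. With libraries of like marker levels Mafa was called (log2 fold change 1.16, adjusted p = 0.00259), and without starved 3 its log2 fold change was 1.19. Ins1 and Ins2 were not called (-0.11 and -0.082 on the log2 scale).

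Of 21 β-cell transcription factor genes, Pdx1 included, 6 fell and 2 rose (3 and 2 with libraries of like marker levels). Without starved 3, 3 of them fell. Neurod1, a bHLH activator of the insulin gene (chromosome 2, 79452521 to 79456751, minus strand), stood at 408, 510.0 and 416 CPM in starved and 219.6, 229 and 238 CPM in re-added libraries, and all re-added values were close to each other and well below the starved ones (adjusted p = 5.61e-06, log2 fold change -0.96, SE 0.084). Hnf4a, the nuclear receptor mutated in a form of inherited diabetes, rose from 19.9, 24.9 and 20.4 to 46.5, 49.6 and 46.9 CPM (adjusted p = 7.81e-05, log2 fold change 1.14, SE 0.14). Nkx2-2 and St18 fell 1.56- and 1.7-fold.

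Of 25 genes of glucose sensing, channels and receptors, 11 rose and 6 fell (5 and 5 with libraries of like marker levels). Glp1r, the receptor of the incretin GLP-1, stood at 62.2, 71.7 and 67.5 CPM in starved and 153, 158 and 169.9 CPM in re-added libraries (adjusted p = 0.0041, log2 fold change 1.26, SE 0.28). Trpm5, a cation channel gene, rose 2.35-fold, and the calcium channel genes Cacna1c and Cacna1d fell 2.41- and 1.85-fold. Slc2a2 rose 3.02-fold from a level near 1 CPM. Among hormones and their processing, Vgf, a secretory granule protein, rose from 536, 647 and 682 to 1080.0, 1119 and 1155 CPM (adjusted p = 0.000395, log2 fold change 0.85, SE 0.13).

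The levels of the same genes in the other groups are given as levels, with no test. Atf5 and Trib3 stood at 232 ± 28.8 and 13.2 ± 3.24 CPM in control cells (SD, n = 3), near the re-added level. Ldha and Slc16a3 were far higher in control cells, 2691 ± 285 and 718 ± 31.7 CPM, than in either group compared, whereas Rrp12 and Odc1 stood at 26.7 ± 2.04 and 329 ± 32.5 CPM, near the starved level. With Rap added, Klhl24 stood at 48.4 ± 3.26 CPM, Fbxo32 at 21.7 ± 1.71 CPM, Deptor at 59.7 ± 2.19 CPM and Ulk1 at 42.8 ± 1.36 CPM, all between the starved and the re-added means. Atf5, Pdia4 and Odc1 stood at 190.1 ± 2.17, 582 ± 11.6 and 782 ± 8.23 CPM with Rap. Hspa8 was at 1755 ± 21 CPM there, lower than with amino acids alone.

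**Figure D5:**
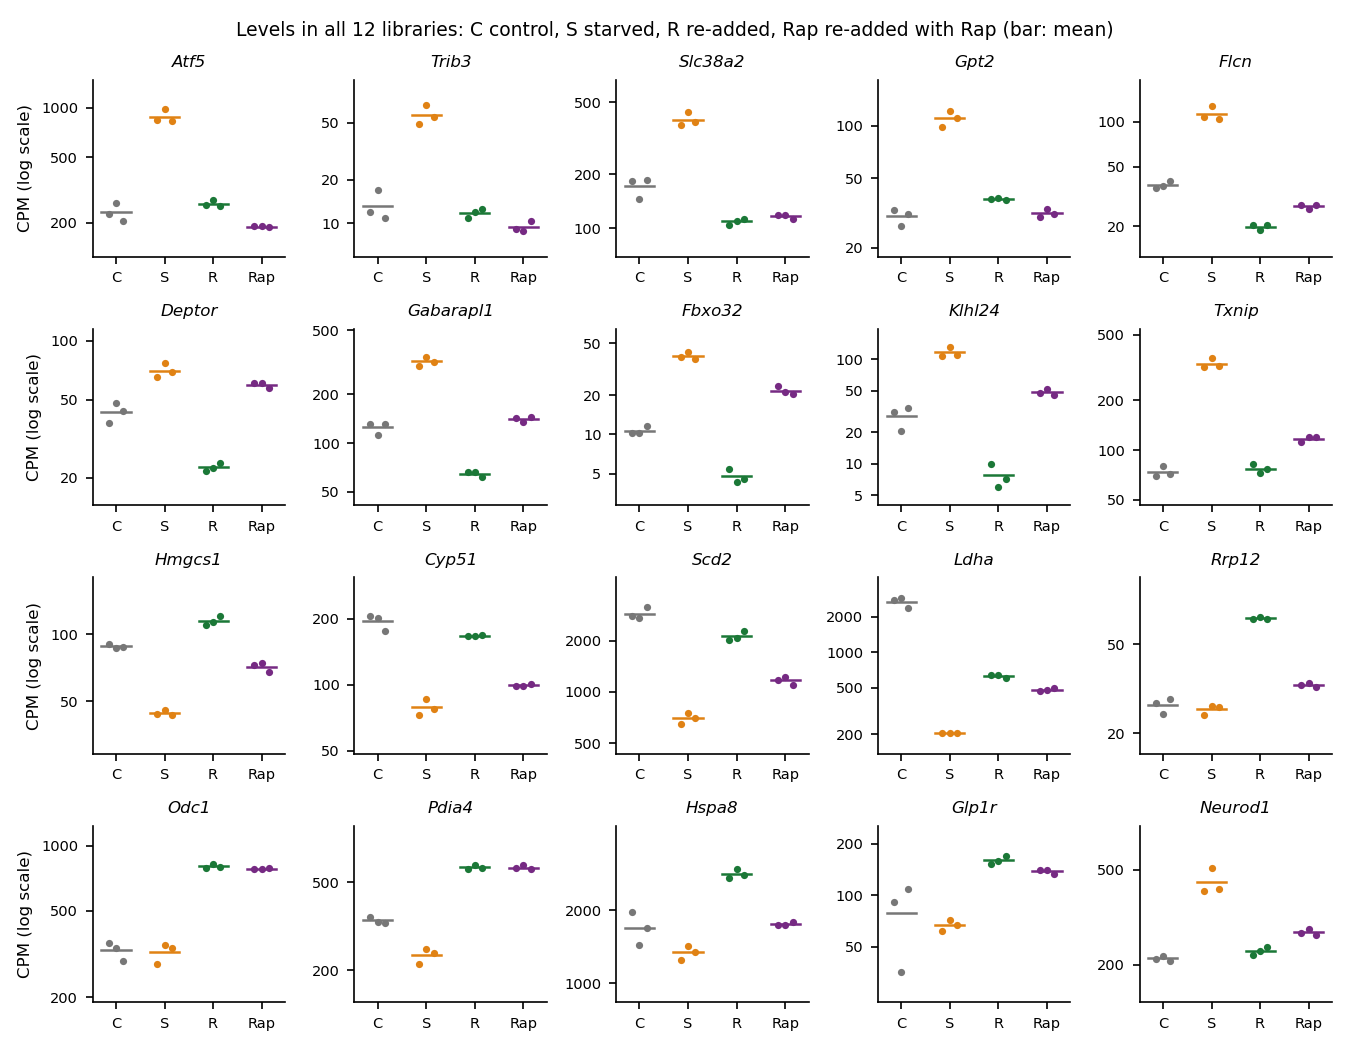
CPM of 20 genes in all 12 libraries on log scales, with 3 points for each group (C control, S starved, R re-added, Rap re-added with Rap) and a bar at the mean. The S and R points do not overlap for any of the 20 genes, and the position of the C and Rap points relative to them differs from gene to gene.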

How the data were processed

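RNA was extracted with TRIzol and a column kit and sequenced as paired reads of 150 bases, per the labels' protocols. The authors deposited raw read counts for each gene and library, and the file headers give Ensembl genes with exon positions and summed exon length. The authors also deposited TPM values with gene names. Subread 2.0.1, limma 3.46.0 and GRCm38.p6 are named per the submitters' processing notes. No aligner, annotation release or strand setting is named (not given in the sources used here), so overlapping and antisense genes cannot be told apart with certainty.

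The counts were tested with edgeR 4.0.16 under R 4.3.3. A filter (filterByExpr, minimum count 10, minimum total 15) kept 16844 of 49315 genes with 99.92% of counts. All 12 libraries entered 1 quasi-likelihood fit with TMM scaling and 8 residual degrees of freedom, from which re-added against starved was a contrast. P-values were adjusted by Benjamini-Hochberg over all tested genes, with a threshold of 0.05. CPM use TMM-scaled totals, except marker sums, which use raw totals. Log2 fold changes are re-added minus starved. Alternatives were other scalings, DESeq2 1.42.0, other filters, limma 3.58.1 on log2(TPM + 1) and log2(TPM + 0.1), only the 6 libraries, a replicate block, the marker sum as a covariate, libraries of like marker levels, and each library left out. The fit was tested on simulated counts.

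The 34 gene lists, the comparison and the alternatives were chosen with earlier results of these data known, and some lists share genes. Named genes are Pdx1, Ins1, Ins2 and Mafa, and the 15 rising and 15 falling called genes of largest change. The latter had a mean of at least 5 CPM over the 6 libraries, a proper symbol, separate groups and the same sign in libraries of like marker levels. Also named are the 6 called genes each way of largest CPM difference and called mTORC1 pathway members. From each list come the 6 members of smallest p with 2 against its majority. Some named by the rule are not reported here, and other list members described were picked for their role after their values were seen. Promoter sequences are from a RefSeq table on GRCm38.p6 matched by symbol, 12101 of 16844 tested genes, with any of a gene's starts counted. Elements for heat shock (TTCNNGAA) and MYC (CACGTG) were also searched. The first was in 7.02% of all genes and in 6 of 27 heat shock chaperone genes. The second was in 9.34% of all genes, 9.3% of those that rose and 12.6% of those that fell. It was in 5 of 62 ribosome biogenesis genes, 5 of 28 nucleotide and pentose phosphate genes and 1 of 9 polyamine genes.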

Additional observations from a re-analysis of the deposited data

How the results depend on the processing

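The count of 6275 called genes and that of 1317 called with at least 2-fold change were recomputed under 17 alternatives. The first stayed within 1.5 times except with libraries of like marker levels (3588), and ranged from 4787 to 7051 when 1 library was left out. The second was 596 with a mean of at least 5 CPM required and 714 by limma on log2(TPM + 1). Leaving out 1 library gave 1108 to 2392, with 2182 without starved replicate 2 and 2392 without re-added replicate 1. Upper-quartile scaling moved the median over all genes from -0.064 to -0.003 and gave 3856 higher and 2823 lower genes. In their deviations from the group means, same-numbered starved and re-added libraries correlated at 0.812, 0.672 and -0.332. Libraries of unlike number but similar other-cell marker sums also correlated, starved 3 with re-added 1 at 0.419 and starved 2 with re-added 3 at 0.631. The correlations therefore cannot show whether replicate numbers pair the samples. With a replicate block 5970 genes were called, and with the marker sum as a covariate 6224 (2798 higher and 3426 lower). Another 301 results were fold changes of genes named by the rule, medians of the 34 lists, and numbers of higher and of lower genes. Genes counted as the same if the call held, with the sign kept unless called in neither fit. List medians had to keep their sign unless near 0, and numbers of genes had to stay within 1.5 times. With libraries of like marker levels 265 were the same, and between 287 and 300 were under the other alternatives with all 301. Some genes were named for keeping their sign in libraries of like marker levels, so part of that agreement was fixed by the selection. The median of the mTORC1 pathway list was -0.15, ran from -0.13 to 0.046 with 1 library left out, and changed sign without starved replicate 1 (0.046). The cause of these shifts was not tested. At 5 CPM a library holds 92.8 to 128.2 reads of a gene, and lower levels are less precise.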

Other observations

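Several groups of genes outside the nutrient pathways also moved between starved and re-added cells. Of 20 genes of replication and mitosis, 10 fell and 3 rose (median -0.31 against -0.064 over all tested genes). Mcm7, part of the replicative helicase, stood at 301, 353 and 329.7 CPM in starved and 189, 180.1 and 179 CPM in re-added libraries (adjusted p = 4.94e-06, log2 fold change -0.84, SE 0.073 by edgeR). Cdk2, the kinase of S phase entry, fell 2.1-fold, while the cyclin genes Ccnd2 and Ccne1 rose 1.63- and 1.52-fold. Among 22 p53 targets 8 fell and 4 rose (5 and 2 between starved 2 and re-added 2 and 3, the libraries of like marker levels, and 5 lower without starved 1), with Tigar, which lowers glycolytic flux, and the nuclease Aen 1.92- and 1.6-fold higher. Of 19 genes of NRF2 and glutathione 7 fell and 6 rose, with more falls but a positive median (0.18, and 0.12 without re-added 2). Gclc, which limits glutathione synthesis, fell 2.18-fold and the heme oxygenase gene Hmox1 2.15-fold. In iron handling, Slc40a1, the iron exporter ferroportin, fell from 406, 503 and 429 to 120.0, 124 and 124 CPM (adjusted p = 1.72e-07, log2 fold change -1.86, SE 0.10 by edgeR), with no overlap of the groups, and the importer gene Slc11a2 rose 1.72-fold.

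Genes that rose and genes that fell at least 2-fold differed in kind. Of 1466 long non-coding RNAs tested, 257 rose and 140 fell, and 171 rose and 83 fell at least 2-fold, with a median of 0.12, against 2785 higher and 2983 lower of 14719 protein-coding genes with a median of -0.076. The 429 protein-coding genes that rose at least 2-fold had a median summed exon length of 2916 bases and a median level of 4.24 CPM. The 558 that fell had medians of 4204.5 bases and 12 CPM, and the 13732 others 4114.5 bases and 27.6 CPM. These are descriptions with no test, and low counts widen the fold changes of low genes.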
